A study of Homo sapiens with 10 samples.

Results

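The metallothioneins and zinc response genes are a group of 10 genes taken by symbol from the 22626 rows of a read-count table of human retinal pigment epithelial cells. They are 7 metallothioneins (MT1A, MT1E, MT1F, MT1G, MT1M, MT1X and MT2A), the zinc-sensing transcription factor MTF1, and the zinc transporters SLC30A1 and SLC39A10. All 10 had a row. Of these, 8 passed the filter on low counts and were tested among 14936 rows, and MT1A and MT1G had 0 counts in all 10 libraries.

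RNA was sequenced from ARPE-19, an established line derived from the human retinal pigment epithelium, the pigmented cell layer that supports the photoreceptors. The control group (MG, n = 5) was kept for 48 h with 5.5 mM glucose and 32 mM mannitol, and the HG group (n = 5) for the same 48 h with 37.5 mM glucose. Total counts ran from 33039260 to 45864176 in the control group and from 32448991 to 44400714 in the HG group. Levels of 1 gene across libraries are given as CPM, its counts scaled to the effective size of each library. The labels do not say whether the libraries of a group came from separate cultures, so the p-values measure only the spread between these samples.

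Metallothioneins are small cysteine-rich proteins that bind zinc and copper and can take up toxic metals such as cadmium. When zinc in the cell is plentiful, MTF1 binds metal response elements in the promoters of metallothionein genes and of SLC30A1 and raises their transcription. The retinal pigment epithelium is rich in zinc, and its metallothioneins have been described as part of its defence against oxidative stress.

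Among the 10 libraries, 1 of each group stood apart from the rest. The second principal component, which held 14.9% of the variance of log2 CPM, placed HG_1 at -44.9 and MG_2 at -43.9, while the other libraries lay between -13.8 and 28.6. In these 2 libraries genes of high GC content were counted more: log2 CPM rose with GC by 0.184 per 10 percentage points in HG_1 and by 0.166 in MG_2, against slopes from -0.091 to -0.00407 in the others. Among those others, the slopes were -0.0404, -0.00407, -0.0133 and -0.0119 in MG_1, MG_3, MG_4 and MG_5. They were -0.0768, -0.0266, -0.091 and -0.0863 in HG_2 to HG_5. Leaving out MG_2 and HG_1 therefore does not make the slopes of the groups equal. The members' results and the counts of each list are therefore also given without MG_2 and HG_1, and with each library's trend over GC content and transcript length removed.

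The line's markers fitted its label in part. OTX2 and MITF, transcription factors of the pigment epithelium, had means of 96.2 ± 3.98 CPM and 57.8 ± 4.79 CPM (SD, n = 5) in the control group, and the epithelial keratin KRT8 had 1864 ± 155 CPM. RPE65, which regenerates the visual pigment, had 6 counts in MG_2 and 0 elsewhere, and TTR had 0 counts in every library. TYR had at most 34 counts. BEST1 had 264 CPM in MG_1 and 551 CPM in MG_4 and at most 7.79 CPM in the other libraries. Of 13 pigment epithelium markers, 10 were tested, 3 were lower in the HG group (KRT8, KRT18 and PMEL) and 7 did not pass, where 15.4% of all rows passed. DESeq2 called 5 of 10 (3085 of 18514 rows in all). With the GC and length trends removed 7 of 10 were lower (BEST1, RLBP1, MITF and OTX2 in addition), against 28.0% of rows that passed. Without MG_2 and HG_1 also 7 of 10 were lower, against 27.1%.

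MT2A was the most abundant metallothionein per transcript length. Its mean was 715 ± 126 FPKM, a level scaled to transcript length and library size, in the control group and 999 ± 105 FPKM in the HG group (SD, n = 5), and it held from 81.9% to 85.3% of the summed FPKM of the 5 detected metallothioneins. MT1E came next with 100 ± 14.9 FPKM and 127 ± 10.5 FPKM. MT1X followed with 25.7 ± 4.6 FPKM and 36.3 ± 4.47 FPKM, and MT1F with 14.3 ± 1.3 FPKM and 10.6 ± 2.92 FPKM. Below them stood SLC30A1 (9.45 ± 0.978 and 10.1 ± 1.44 FPKM), SLC39A10 (6.57 ± 1.05 and 5.7 ± 1.1 FPKM), MTF1 (2.39 ± 0.299 and 2.3 ± 0.281 FPKM) and MT1M (0.849 ± 0.347 and 0.525 ± 0.143 FPKM). The levels of MT1F and SLC30A1 in the HG group lay within each other's spread, while in the control group every pair of neighbours in this order differed by more than 1 SD of either gene.

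MT2A and MT1X were higher in the HG group, by 1.39-fold and 1.4-fold, and were the 2 of the 8 tested genes that passed the test across all rows. MT1E had a smaller difference in the same direction that did not pass. MT1F and MT1M had lower means in the HG group, and the sensor MTF1 and the transporters SLC30A1 and SLC39A10 did not pass in either direction. The background was high: 2303 of 14936 rows (15.4%) passed, 7.62% higher and 7.80% lower in the HG group. Both members that passed were higher and 0 were lower. The median log2 fold change of the 8 genes was 0.01, beside 0.00 over all rows tested. RNA from a whole culture was measured, so fewer cells making a transcript and less of it per cell cannot be told apart.

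MT2A encodes the main metallothionein of many human cell types, and lies on chromosome 16 (chr16:56608199-56609497 of GRCh38, plus strand). Its levels in MG_1 to MG_5 were 246, 413, 316, 314 and 303 CPM, and in HG_1 to HG_5 they were 536, 390, 439, 408 and 432 CPM. The libraries that stood apart, MG_2 and HG_1, were the highest of their groups, and MG_2 lay above HG_2 and HG_4, so the groups overlapped. The log2 fold change was 0.47 (SE 0.128, 95% interval 0.19 to 0.75) with an adjusted p of 0.0303 by the quasi-likelihood test of edgeR, adjusted over all rows by the Benjamini-Hochberg method. Without MG_2 and HG_1 the groups did not overlap, and the log2 fold change was 0.50 (0.32 to 0.68) with an edgeR adjusted p of 0.00195. With the GC and length trends removed it was 0.40 (0.27 to 0.52), edgeR adjusted p 0.000301. On that scale the log2 CPM ran from 8.09 to 8.45 in the control group and from 8.68 to 8.76 in the HG group, without overlap. Over all alternatives the adjusted p ran from 0.000301 to 0.0721. It missed the threshold when 1 library was left out in 6 of 10 fits by edgeR: MG_1 (adjusted p 0.0588), MG_3 (0.0652), MG_4 (0.0643), MG_5 (0.0721), HG_3 (0.0634) and HG_5 (0.0573).

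MT1X, the metallothionein farthest from MT2A among the 7 in the same gene cluster (chr16:56682424-56684196, plus strand), was measured at 8.94, 14.4, 12.2, 12 and 9.55 CPM in MG_1 to MG_5. In HG_1 to HG_5 it was 20, 14.3, 15.5, 14 and 16.5 CPM. As for MT2A, MG_2 and HG_1 were the highest of their groups, and MG_2 lay just above HG_2 and HG_4. The log2 fold change was 0.49 (SE 0.144, 95% interval 0.17 to 0.81; edgeR adjusted p 0.0425). Without MG_2 and HG_1 it was 0.50 (0.23 to 0.76; edgeR adjusted p 0.0131), and the groups did not overlap. Removing the GC and length trends gave 0.45 (0.25 to 0.66; edgeR adjusted p 0.00346), again without overlap. The adjusted p ran from 0.00346 to 0.0993 over all alternatives, and with no filter on low counts the call was lost (edgeR adjusted p 0.0523). In edgeR fits that left out 1 library it was 0.0158 without MG_2 and missed the threshold in the other 9: without HG_1 (adjusted p 0.0649), HG_2 (0.0562), HG_3 (0.0759), HG_4 (0.0508), HG_5 (0.0841), MG_1 (0.0925), MG_3 (0.0684), MG_4 (0.0709) or MG_5 (0.0993). Of the 100-base windows of its transcript, 50.8% also occur in AC026461.1, an overlapping gene on the same strand that was not analysed here, so reads of the 2 genes may have been split in counting.

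MT1E (chr16:56625475-56627112, plus strand) had 66.8, 98.8, 72.3, 74.7 and 70.7 CPM in MG_1 to MG_5 and 114, 86.5, 96.6, 91.1 and 93.8 CPM in HG_1 to HG_5. MG_2 lay above every HG library except HG_1, and the other 4 control libraries lay below all 5 HG libraries. The log2 fold change was 0.33 (SE 0.111, 95% interval 0.09 to 0.58), and it did not pass, with an edgeR adjusted p of 0.0685. Without MG_2 and HG_1 it was 0.37 (0.27 to 0.48; edgeR adjusted p 0.000716), and with the GC and length trends removed 0.25 (0.16 to 0.33; edgeR adjusted p 0.00068), in both cases without overlap. It also passed without MG_2 alone (log2 fold change 0.44, edgeR adjusted p 0.0047), with library size alone (edgeR adjusted p 0.0386), in DESeq2 (adjusted p 0.0243) and in the 3 limma fits (adjusted p 0.0301, 0.0303 and 0.0264), and the range over all alternatives was 0.00068 to 0.154.

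MT1F (chr16:56657694-56660698, plus strand) differed in the opposite direction. Its levels were 5.88, 6.75, 7.43, 6.78 and 6.22 CPM in MG_1 to MG_5, and 7.22, 4.51, 5.13, 3.28 and 4.32 CPM in HG_1 to HG_5. HG_1 lay among the control libraries, and the other 4 HG libraries lay below all 5 controls. The log2 fold change was -0.43 (SE 0.183, 95% interval -0.84 to -0.03), which did not pass (edgeR adjusted p 0.147). Without HG_1 alone it was -0.61 and passed (edgeR adjusted p 0.0121). Without MG_2 and HG_1 it was -0.61 (-0.94 to -0.27; edgeR adjusted p 0.0159), with no overlap. With the trends removed it was -0.49 (-0.77 to -0.20; edgeR adjusted p 0.0151), where the highest HG library, at 2.51 log2 CPM, met the lowest control at 2.50. The range of its adjusted p over all alternatives was 0.0121 to 0.265.

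MT1M (chr16:56632233-56633986, plus strand) was near the limit of detection. It had 17, 10, 18, 19 and 11 counts in MG_1 to MG_5 and 10, 12, 14, 9 and 6 counts in HG_1 to HG_5. The groups overlapped, and the log2 fold change of -0.57 had a 95% interval from -1.31 to 0.16 (edgeR adjusted p 0.301). At this depth a difference of that size could not be told from the spread between libraries. MT1A and MT1G had 0 counts in each library, which allows up to 0.0669 to 0.0912 CPM by library (3 counts, counting error only). Among the other metallothionein genes, MT1B, MT1H, MT1HL1, MT3 and MT4 also had 0 counts in all 10 libraries, and the pseudogenes MT1L, MT1JP, MT1DP, MT1IP, MT1CP and MT1P3 were not analysed here.

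**Figure D1:**
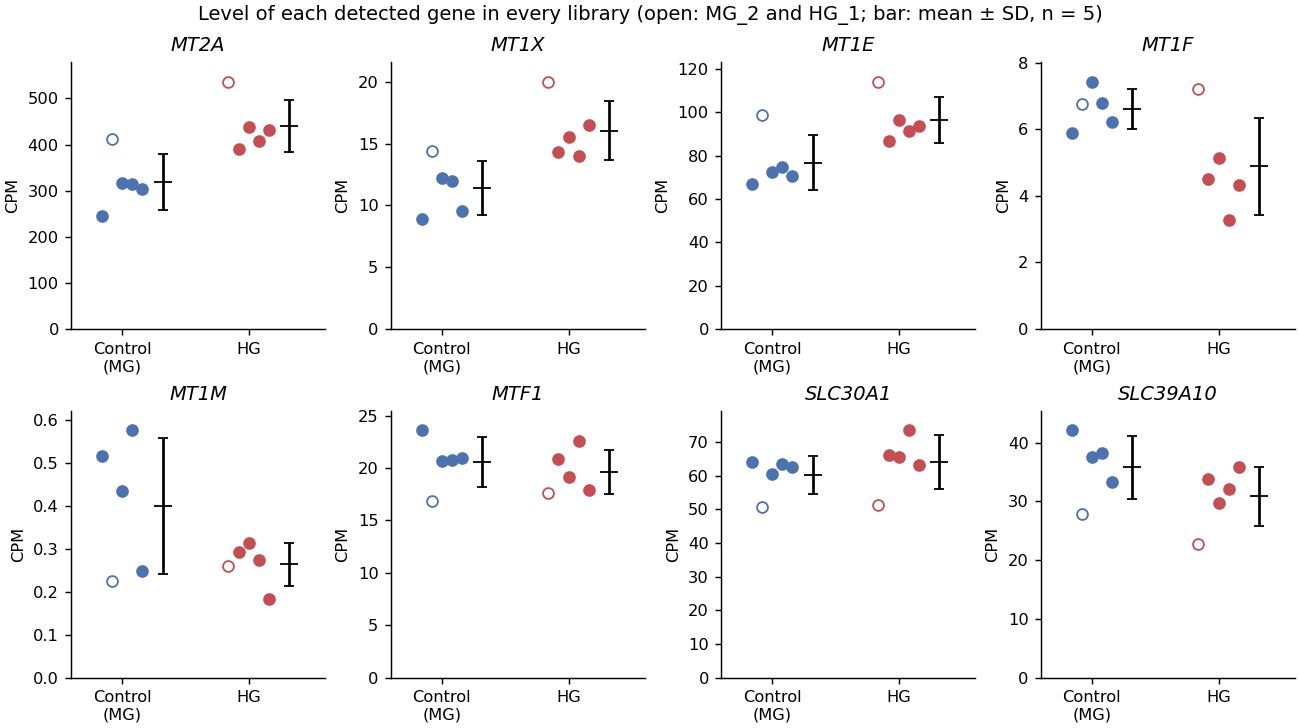
CPM of the 8 detected genes in each control (MG, blue) and HG (red) library, with the mean ± SD of each group (n = 5) beside the points and MG_2 and HG_1 as open circles. For MT2A, MT1X and MT1E both open circles are the highest of their group, and for MTF1, SLC30A1 and SLC39A10 they are the lowest.

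In CPM, 0 of the 8 tested genes had groups that did not overlap, against 13.6% of all rows. Leaving out MG_2 and HG_1 gave 4 of 8 (MT2A, MT1X and MT1E higher, MT1F lower), against 30.7% of rows. With the GC and length trends removed, 3 of 8 did not overlap (MT2A, MT1X and MT1E), against 21.0% of 13538 rows. By adjusted p in edgeR, 5 of 8 passed with the trends removed, against 28.0% of rows, and 4 of 8 passed without MG_2 and HG_1, against 27.1%. The number of members that passed thus rose together with the background.

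**Figure D2:**
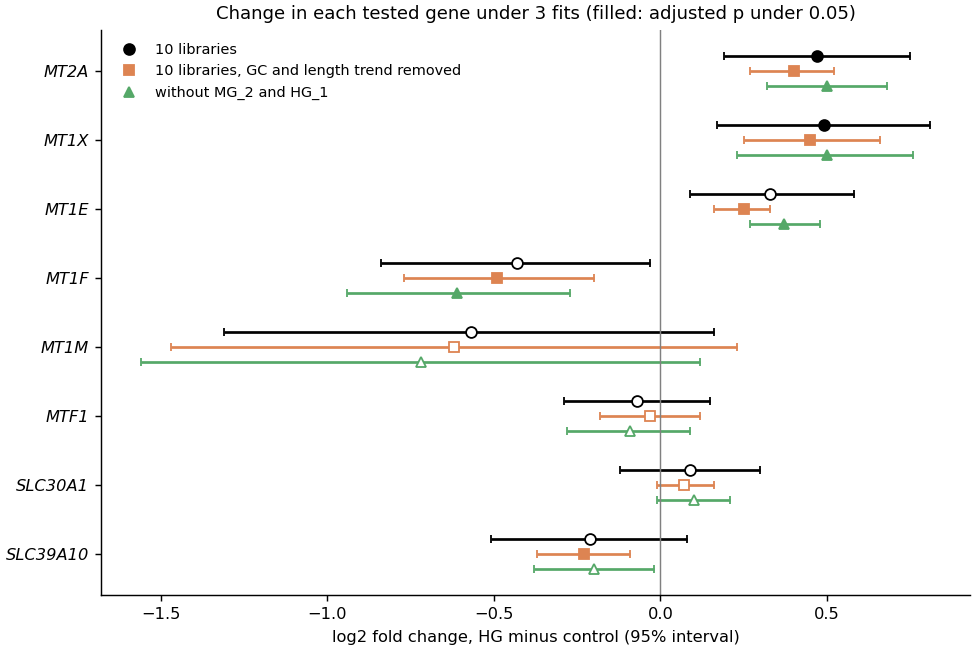
log2 fold change (HG minus control) with its 95% interval for the 8 tested genes, fitted on 10 libraries (black), on 10 libraries with the GC and length trends removed (orange) and without MG_2 and HG_1 (green). Filled symbols passed an adjusted p of 0.05, and each gene keeps its direction in the 3 fits.

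The detected metallothioneins were also set against MT2A within each library, as a description. For each 100 counts of MT2A in the same library, MT1F had 2.39, 1.64, 2.35, 2.16 and 2.05 counts in MG_1 to MG_5, and 1.35, 1.16, 1.17, 0.804 and 0.999 in HG_1 to HG_5. All HG libraries lay below all controls, MG_2 and HG_1 included, with means of 2.12 ± 0.304 and 1.09 ± 0.204 (SD, n = 5). MT1E had 27.2, 23.9, 22.9, 23.8 and 23.3 counts for each 100 of MT2A in MG_1 to MG_5, and 21.3, 22.2, 22, 22.3 and 21.7 in HG_1 to HG_5. Here too the groups did not overlap, but they lay close together, between 22.3 in HG_4 and 22.9 in MG_3. MT2A was itself 1.39-fold higher in the HG group, so a gene of unchanged level would also have a lower ratio there. The share of all rows whose ratio to MT2A did not overlap between the groups was not determined. MT1X had from 3.15 to 3.86 in the control group and from 3.42 to 3.82 in the HG group, and MT1M from 0.0543 to 0.21 and from 0.0422 to 0.0746, both with overlap. The ratios do not depend on the scaling of the libraries, were not tested, and compare genes of unequal GC content (63.0% in MT2A, 59.9% in MT1F, 53.5% in MT1E, 54.3% in MT1X and 62.5% in MT1M).

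**Figure D3:**
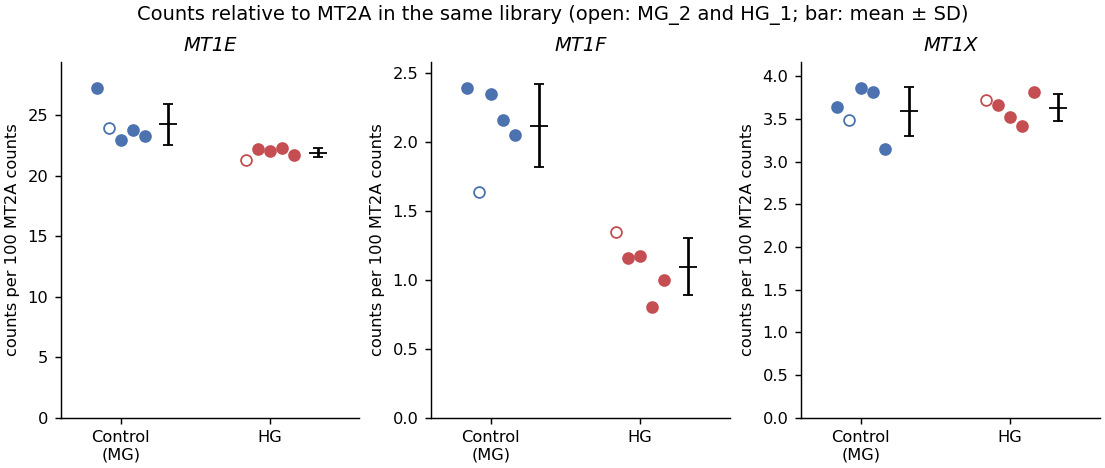
Counts of MT1E, MT1F and MT1X per 100 counts of MT2A in each control (MG, blue) and HG (red) library, with mean ± SD and MG_2 and HG_1 as open circles. The HG libraries lie below the controls for MT1E and MT1F and among them for MT1X.

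The 7 metallothioneins lie in 1 cluster on chromosome 16. From the start of MT2A, MT1E begins at 17.3 kb, MT1M at 24 kb, MT1A at 30.5 kb, MT1F at 49.5 kb, MT1G at 58.5 kb and MT1X at 74.2 kb. MT2A and MT1E, with higher means in the HG group, are next to each other among these 7, and MT1X, also with a higher mean, is separated from them by MT1M and MT1F, with lower means, and by genes at 0 counts. MT1G is on the minus strand, and the other 6 are on the plus strand. The metallothioneins are close copies, and how the counting treated reads matching several genes is not given in the sources used here. Apart from MT1X, 0% of the 100-base windows of the members' metallothionein transcripts occur in another annotated transcript.

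**Figure D4:**
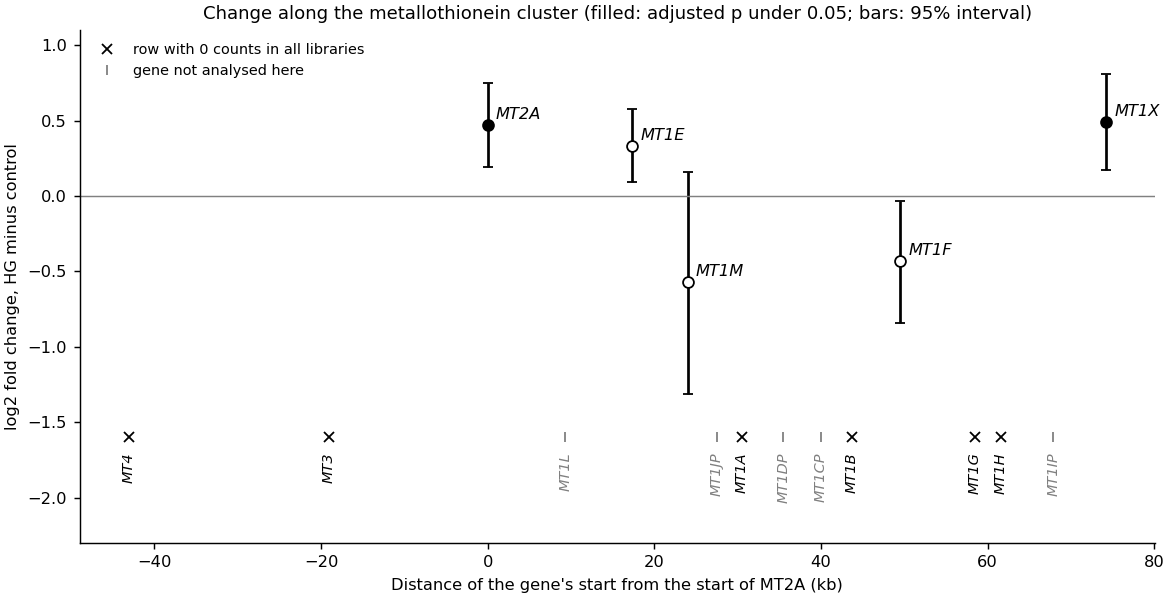
log2 fold change (HG minus control, bars 95% interval) of the detected metallothioneins against the distance of each gene's start from that of MT2A in kb. Filled points passed an adjusted p of 0.05, crosses are genes with 0 counts in all libraries, and grey ticks are genes not analysed here; MT2A and MT1X, the 2 that passed, lie 74.2 kb apart.

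MTF1 binds promoters through metal response elements, so the promoters of the 2 genes that passed and of SLC30A1, another of its targets, are shown. The RefSeq table for GRCh38.p14 holds promoters for 5 of the 10 genes (MT2A, MT1X, MTF1, SLC30A1 and SLC39A10), each from 250 bases before to 50 bases after a start as RefSeq places it. These starts are not those of the GENCODE annotation behind the gene positions given here: they lie 385 bases downstream of it for MT2A, 46 bases downstream for MT1X, 28 bases downstream for MTF1 and 419 bases upstream for SLC30A1, and the 2 starts of SLC39A10 lie 80981 and 81249 bases downstream. The windows of MT2A, SLC30A1 and SLC39A10 therefore do not cover the GENCODE start. Capitals mark the core of the metal response element, searched as TGCACNC or TGCGCNC on both strands, so that a match on the minus strand reads as GNGTGCA or GNGCGCA. The windows are chr16:56608334-56608633 (plus strand) for MT2A, chr16:56682220-56682519 (plus strand) for MT1X and chr1:211579112-211579411 (minus strand) for SLC30A1.
MT2A: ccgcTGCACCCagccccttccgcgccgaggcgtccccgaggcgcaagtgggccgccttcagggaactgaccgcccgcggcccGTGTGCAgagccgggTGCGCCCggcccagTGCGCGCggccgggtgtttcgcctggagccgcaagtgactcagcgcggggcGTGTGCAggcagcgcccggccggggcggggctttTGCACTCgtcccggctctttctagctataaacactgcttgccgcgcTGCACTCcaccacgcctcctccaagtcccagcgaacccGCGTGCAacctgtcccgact
MT1X: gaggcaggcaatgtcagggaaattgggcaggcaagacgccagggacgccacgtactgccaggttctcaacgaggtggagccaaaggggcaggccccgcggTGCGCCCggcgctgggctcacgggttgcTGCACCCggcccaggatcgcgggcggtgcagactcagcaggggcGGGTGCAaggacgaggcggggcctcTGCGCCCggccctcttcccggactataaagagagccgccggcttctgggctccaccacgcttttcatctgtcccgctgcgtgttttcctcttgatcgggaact
SLC30A1: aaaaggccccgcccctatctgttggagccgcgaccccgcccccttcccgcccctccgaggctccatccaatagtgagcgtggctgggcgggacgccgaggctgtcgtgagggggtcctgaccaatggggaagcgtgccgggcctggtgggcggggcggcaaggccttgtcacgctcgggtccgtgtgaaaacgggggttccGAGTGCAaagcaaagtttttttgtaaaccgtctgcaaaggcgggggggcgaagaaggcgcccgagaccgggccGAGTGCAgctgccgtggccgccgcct
The MT2A window holds 8 matches, a number reached by 7 of 35116 promoters (0.0199%). The MT1X window holds 4, reached by 0.601%, and the SLC30A1 window 2, reached by 8.6%. The window of MTF1 holds 0, and those of the 2 starts of SLC39A10 hold 0 and 1. Of all promoters, 29.6% hold at least 1 match and the median is 0. These are matches of letters in a window, not measured binding.

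MTF1, the factor that senses zinc (chr1:37809567-37859620, minus strand), had 23.6, 16.9, 20.7, 20.8 and 21 CPM in MG_1 to MG_5 and 17.6, 20.9, 19.2, 22.6 and 17.9 CPM in HG_1 to HG_5. MG_2 and HG_1 were the lowest of their groups, and the groups overlapped over most of their range. Its log2 fold change was -0.07 (SE 0.099, 95% interval -0.29 to 0.15; edgeR adjusted p 0.724), and without MG_2 and HG_1 it was -0.09 (-0.28 to 0.09; edgeR adjusted p 0.456). It overlaps AL929472.4 on the opposite strand, and whether strand was used in counting is not given in the sources used here.

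SLC30A1, which exports zinc across the plasma membrane (chr1:211571568-211578742, minus strand), had 64.1, 50.6, 60.5, 63.5 and 62.6 CPM in MG_1 to MG_5. In HG_1 to HG_5 it had 51.4, 66.3, 65.7, 73.5 and 63.1 CPM. MG_2 and HG_1 were the lowest of their groups, and the groups overlapped also without them. The log2 fold change was 0.09 (SE 0.0959, 95% interval -0.12 to 0.30; edgeR adjusted p 0.621), and without MG_2 and HG_1 it was 0.10 (-0.01 to 0.21; edgeR adjusted p 0.168). Its adjusted p stayed above the threshold in every alternative, from 0.168 to 0.882.

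SLC39A10, which brings zinc into the cell (chr2:195575977-195737702, plus strand), had 42.1, 27.9, 37.6, 38.2 and 33.3 CPM in MG_1 to MG_5 and 22.8, 33.8, 29.8, 32.2 and 35.8 CPM in HG_1 to HG_5. MG_2 and HG_1 were again the lowest of their groups, and the groups overlapped. The log2 fold change of -0.21 (SE 0.134, 95% interval -0.51 to 0.08) did not pass (edgeR adjusted p 0.339). With the GC and length trends removed it was -0.23 (-0.37 to -0.09) and passed (edgeR adjusted p 0.0193), while without MG_2 and HG_1 it was -0.20 (-0.38 to -0.02) and did not (edgeR adjusted p 0.0931). Over all alternatives the adjusted p ran from 0.0193 to 0.578. Like MTF1, SLC39A10 overlaps genes on the opposite strand, AHCYP5 and RNU6-915P.

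Among the other zinc transporters, 0 passed. Of 10 further genes of the zinc exporter list, whose products mostly move zinc out of the cytosol, 7 were tested and 0 passed in edgeR (15.4% of all rows passed), with a median log2 fold change of 0.04 beside 0.00 over all rows. At an unadjusted p under 0.05 there was 1, where 4258 of 14936 rows passed. DESeq2 called 0 (3085 of 18514 rows in all) and limma 0 (2036 of 14936 rows). The 2 most abundant were SLC30A9 (106 ± 12.7 CPM in the control group and 116 ± 12.6 CPM in the HG group; log2 fold change 0.13, edgeR adjusted p 0.45) and SLC30A5 (59.4 ± 1.79 and 61.2 ± 4.75 CPM; 0.04, edgeR adjusted p 0.698). Leaving out MG_2 and HG_1 also gave 0 (27.1% of rows passed). With the trends removed, 2 of 7 passed (28.0% of rows), SLC30A3 (log2 fold change 0.64, edgeR adjusted p 0.0397) and SLC30A9 (0.13, edgeR adjusted p 0.0402). SLC30A3 is named here after its values were seen.

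Of 13 further zinc importers, 10 were tested and 0 passed in edgeR (15.4% of all rows passed), with a median log2 fold change of -0.05. An unadjusted p under 0.05 was found in 1, against 4258 of 14936 rows. DESeq2 called 0 (3085 of 18514 rows in all) and limma 0 (2036 of 14936 rows). SLC39A1, an importer at the plasma membrane, had 286 ± 33.6 CPM in the control group and 310 ± 33.8 CPM in the HG group (log2 fold change 0.11, edgeR adjusted p 0.469), and SLC39A13 had 144 ± 12.7 and 135 ± 15.8 CPM (-0.09, edgeR adjusted p 0.559). In both genes MG_2 and HG_1 were the highest of their groups. With the trends removed 3 of 10 passed (28.0% of rows): SLC39A1 was higher (log2 fold change 0.12, edgeR adjusted p 0.0373), and SLC39A6 (-0.27, edgeR adjusted p 0.00279) and SLC39A7 (-0.18, edgeR adjusted p 0.0407) were lower. Without MG_2 and HG_1, 3 importers passed as well (27.1% of rows), all lower, among them SLC39A13 (log2 fold change -0.11, edgeR adjusted p 0.0216). SLC39A6 and SLC39A7 are named after their values were seen.

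Metallothioneins also bind copper. All 11 copper handling genes were tested, 2 passed (15.4% of all rows passed) and both were higher in the HG group, and the median log2 fold change was -0.01. With the trends removed 4 passed, SLC31A1 among the 3 higher and COMMD1 lower (28.0% of rows passed). There were 3 without MG_2 and HG_1, all higher (27.1%). DESeq2 called 3 (3085 of 18514 rows in all) and limma 1 (2036 of 14936 rows). SCO1, which delivers copper to cytochrome c oxidase, had from 40.7 to 44.7 CPM in the control group and from 46.5 to 53.1 CPM in the HG group, without overlap (log2 fold change 0.24, SE 0.0503, edgeR adjusted p 0.00863). COX11, an assembly factor of the same enzyme, had from 52.7 to 59 CPM and from 59.6 to 75.8 CPM, also without overlap (0.25, SE 0.068, edgeR adjusted p 0.0313). Both genes were named because they passed, and 13.6% of all rows had groups that did not overlap. The call of COX11 was lost in edgeR fits without HG_2 (adjusted p 0.0617), HG_4 (0.051), HG_5 (0.0671), MG_1 (0.0772), MG_2 (0.0546), MG_3 (0.0648) or MG_5 (0.0657). It was also lost in the 3 limma fits (adjusted p 0.0977, 0.0989 and 0.0893), and its adjusted p ran from 0.00657 to 0.0989 over all alternatives. SLC31A1 and COMMD1 are named after their values were seen.

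Of 10 genes known to rise with heavy metals or the stress they cause, all 10 were tested, 2 passed (15.4% of all rows passed) and both were higher, and the median log2 fold change was 0.08. With the trends removed 4 passed, 3 higher, with SRXN1 in addition, and DNAJB1 lower (28.0% of rows passed). There were 5 without MG_2 and HG_1, 4 higher and DNAJB1 lower (27.1%). DESeq2 called 3 (3085 of 18514 rows in all) and limma 3 (2036 of 14936 rows). HMOX1, which breaks down heme, had 38.8, 54.2, 50.5, 51.2 and 50.8 CPM in MG_1 to MG_5 and 93.4, 70.1, 77.9, 72.4 and 74.9 CPM in HG_1 to HG_5. Every HG library lay above every control, where 13.6% of all rows had groups that did not overlap. The log2 fold change of HMOX1 was 0.66 (SE 0.102, 95% interval 0.44 to 0.89; edgeR adjusted p 0.00158). SLC7A11, the cystine carrier that feeds glutathione synthesis, ran from 22.2 to 32.5 CPM in the control group and from 33.4 to 50.2 CPM in the HG group (log2 fold change 0.57, SE 0.123, edgeR adjusted p 0.00993). HMOX1 and SLC7A11 passed in every alternative. The most abundant gene of the list, TXNRD1, had 1231 CPM in the control group and 1383 CPM in the HG group and did not pass (log2 fold change 0.17, edgeR adjusted p 0.301), but passed without MG_2 and HG_1 (0.18, edgeR adjusted p 0.011; range over all alternatives 0.011 to 0.489). SRXN1, DNAJB1 and TXNRD1 are named after their values were seen.

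Glucocorticoids are another known inducer of metallothionein genes. Of 10 glucocorticoid response genes, 9 were tested, 1 was higher and 2 were lower in the HG group (15.4% of all rows passed), with a median log2 fold change of -0.08. With the trends removed (28.0% of rows) and without MG_2 and HG_1 (27.1% of rows), 2 were higher and 2 lower, KLF9 being the further gene, named after its values were seen. TSC22D3 ran from 16.8 to 19.6 CPM in the control group and from 23.1 to 32.5 CPM in the HG group (log2 fold change 0.66, SE 0.106, edgeR adjusted p 0.00207). SGK1, a kinase, ran from 26.5 to 36.3 CPM and from 16.7 to 22 CPM (-0.67, SE 0.104, edgeR adjusted p 0.00171). DUSP1, a phosphatase of MAP kinases, ran from 164 to 185 CPM and from 131 to 143 CPM (-0.36, SE 0.0453, edgeR adjusted p 0.000589). Of the 9 tested genes, these 3 had groups that did not overlap, against 13.6% of all rows. The direction differed between genes of the same list. These 3 were named because they passed the test, so their lack of overlap is not separate evidence.

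**Figure D5:**
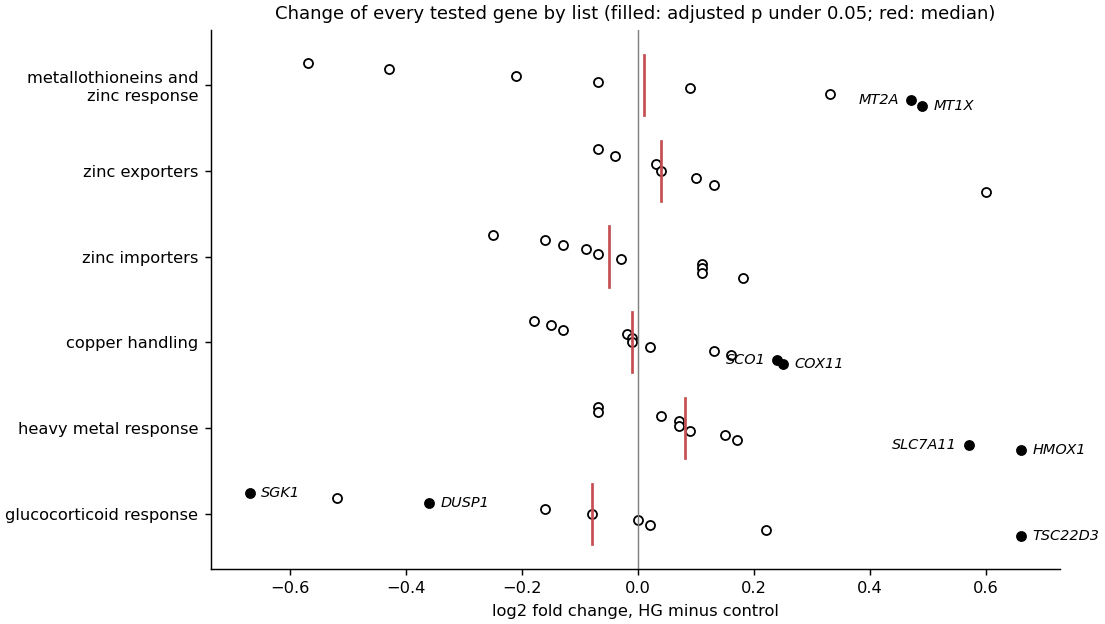
log2 fold change (HG minus control) of every tested gene by list, with the list's median as a red line. Filled points passed an adjusted p of 0.05 over all 14936 rows and are named; the zinc exporters and importers have no filled point.

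Markers of other cells were checked beside these results. Over all rows 15.4% passed, 7.62% higher and 7.80% lower in the HG group. Of 5 immune markers, 2 were tested, and CD68, a lysosomal protein abundant in macrophages, was higher in the HG group (log2 fold change 0.70, edgeR adjusted p 0.00311) and passed in every alternative. CD79A, the other tested, had a log2 fold change of -0.51 and did not pass (edgeR adjusted p 0.49). CD3E had 0 counts, PTPRC at most 4 and CD14 at most 8. The summed immune markers, nearly all CD68, were 55.1, 82.3, 80.1, 69.6 and 69.6 CPM in MG_1 to MG_5 and 145, 110, 114, 104 and 102 CPM in HG_1 to HG_5. Of 4 endothelial markers, 2 were tested, and KDR was lower (-0.63, edgeR adjusted p 0.0452), with CDH5 at 0 counts and PECAM1 at most 4. VWF, the other tested, had a log2 fold change of -0.39 and did not pass (edgeR adjusted p 0.742). The call of KDR was lost without MG_2 and HG_1 (log2 fold change -0.58, edgeR adjusted p 0.0638), with library size alone (edgeR adjusted p 0.0555), with no filter on low counts (edgeR adjusted p 0.0623) and in limma (adjusted p 0.0629 and 0.0711), and over all alternatives the adjusted p ran from 0.0154 to 0.11. Among edgeR fits that left out 1 library it was kept without MG_3 (adjusted p 0.0338) and lost without HG_1 (0.0704), HG_2 (0.0536), HG_3 (0.109), HG_4 (0.0507), HG_5 (0.0896), MG_1 (0.106), MG_2 (0.0551), MG_4 (0.11) or MG_5 (0.0712). Their sums were 4.4, 3.86, 2.93, 5.05 and 3.62 CPM in MG_1 to MG_5 and 2.13, 3.01, 2.5, 2.77 and 2.74 CPM in HG_1 to HG_5. Among photoreceptor and glia markers, CRX and GNAT1 had 0 counts in every library, the cone gene ARR3 had from 4 to 17 counts, and GFAP had at most 7. The summed pigment epithelium markers, led by KRT8, were 3592, 3456, 2835, 3477 and 2946 CPM in MG_1 to MG_5 and 2472, 1929, 1881, 1798 and 2069 CPM in HG_1 to HG_5. These sums are mostly the epithelial keratins KRT8 and KRT18, with means of 1864 and 1060 CPM in the control group and 1211 and 659 CPM in the HG group. The sums of MG_1 and MG_4 also hold 264 and 551 CPM of BEST1. The part of CD68, KDR and the keratins in the differences of the metallothioneins was not tested.

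Over the 10 libraries, the genes whose log2 CPM was most like that of MT2A among 12358 others were BLVRB (Pearson r 0.995), COPRS (0.992), CSTB (0.989), BEX2 (0.988) and ATP5MC3 (0.987). Over deviations from the group means they were BLVRB (r 0.992), COPRS (0.985), CSTB (0.985), TRAPPC2L (0.981) and PDXK (0.980). BLVRB, COPRS and CSTB stood in both orders. The values share the same 10 libraries and their unequal GC trends, so these r describe likeness in these libraries only.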

How the data were processed

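The authors deposited read counts per gene, whole numbers without normalization, and FPKM values, which correct for the length of each transcript and the size of each library. The submitters' processing notes name fastp 0.20.1, HISAT2 2.2.1 and GRCh38; the counting program and annotation are not given in the sources used here. Counts were filtered with filterByExpr, scaled by TMM and compared with edgeR 4.0.16 (quasi-likelihood test, R 4.3.3), adjusted by Benjamini-Hochberg over 14936 rows. The script was tested on simulated data. Alternatives used DESeq2 1.42.0, limma 3.58.1 on log2(FPKM + 1) or log2(FPKM + 0.1), other scalings and filters, removal of each library's GC and length trend (lowess, span 0.3; 13538 rows with a value), and libraries left out. GC content, length and positions came from GENCODE for GRCh38. HG libraries are numbered as in the deposited columns. Total counts of 32448991 to 45864176 put 3 counts at 0.0669 to 0.0912 CPM. Named genes were all members and, from each other pathway list, those with an adjusted p under 0.05, at most 4 by absolute log2 fold change, or else the 2 of highest mean CPM; marker genes were named from separate lists. For likeness, the 5 genes of at least 1 CPM with the highest Pearson r with MT2A were named, over log2 CPM (prior count 2) and over deviations from group means. The members and lists were chosen with earlier results of these data known.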

Additional observations from a re-analysis of the deposited data

Results flagged for a closer look

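In 13 of 86 groups of 5 values, 1 library lay far from the other 4; chance gives about 1 in 20 groups, here 4.3. In MG_2, MT1E was at 98.8 CPM (other controls 66.8 to 74.7), SLC30A1 at 50.6 CPM (60.5 to 64.1), SLC39A13 at 166 CPM (135 to 143), PMEL at 4.35 CPM (3.35 to 3.46), TXNRD1 at 1017 CPM (1249 to 1341) and DNAJB1 at 283 CPM (274 to 275). In HG_1, SLC39A13 was at 163 CPM (125 to 130 in the other HG libraries), CD68 at 143 CPM (102 to 113), SLC39A6 at 45.7 CPM (60.3 to 64.1) and DNAJB1 at 286 CPM (252 to 258). In MG_4, SCO1 was at 44.7 CPM (40.7 to 41.5). In MG_1, HMOX1 was at 38.8 CPM (50.5 to 54.2), and MT1E had 27.2 counts per 100 of MT2A (22.9 to 23.9). MG_2 and HG_1, the libraries with the steepest GC slopes, hold 10 of the 13 values.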

How the results depend on the processing

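Under 20 alternatives, 10 of them leaving out 1 library each, 38 genes named with a fold change or a call gave 754 fold changes, and 0 changed direction. Of these, 660 stayed on the same side of the threshold, 40 lost the call and 54 gained it. The number of rows with an adjusted p under 0.05 was 2303. It was 3786 with the GC and length trends removed and 4035 without MG_2 and HG_1, and ran from 1648 to 2993 when 1 library was left out. Of the metallothioneins and zinc response genes, 2 passed. There were 5 with the GC and length trends removed and 4 without MG_2 and HG_1. With no filter on low counts, where more rows were tested, 1 member and 2055 of 18514 rows passed. From 0 to 3 members passed when 1 library was left out. Fewer libraries were fitted in the latter; otherwise the cause was not tested. HMOX1, SLC7A11, SCO1, SGK1, TSC22D3, DUSP1, KRT8, KRT18, PMEL and CD68 passed in all 20 alternatives. No paired analysis was possible because the labels number the control libraries and letter the HG libraries, and nothing ties the numbers of the deposited HG columns to those of the control columns. Depth limits MT1M, with 6 to 19 counts in a library, and the genes at 0.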
